A study of Homo sapiens with 95 samples.

Results

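The genes described here are those of the unfolded protein response of the endoplasmic reticulum (ER), measured in an immortalised human bronchial epithelial cell line in 8 engineered lines and with 3 chemicals found in or made from tobacco smoke. The members were a fixed list of 38 gene symbols, looked up in the first column of each count file and kept where the mean raw count over all samples was at least 1. This kept 37 genes of 27978 symbols, of which 22764 had a read in some sample and 14407 had a mean count of at least 1. The symbol that was not kept is EDEM2, a mannosidase-like lectin of ER-associated degradation, with a mean count of 0.263 and no read in 74 of the 95 libraries.

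All 95 samples were cultures of AALE cells, which are immortalised epithelial cells of the human bronchus. 8 lines were made from them. The FAT1 and CDKN2A lines carry a CRISPR/Cas9 knockout of the gene they are named for, and their control, called GFP, received the Cas9 and EGFP plasmid with no guide RNA. The NRF2, FGFR1, NRG1 and PIK3CA lines overexpress the named gene (NRF2 is the protein of NFE2L2), and their control, called HcRed, carries a vector with the red fluorescent protein in place of the gene. Each line was cultured with 24 µg/ml cigarette smoke condensate (CSC), 173 µM benzo(a)pyrene (BaP), 490 µM nicotine-derived nitrosamine ketone (NNK) or dimethyl sulfoxide (DMSO), the solvent control, giving 32 combinations with 3 samples each, except FGFR1 with CSC, which had 2. Each genotype is represented by 1 line, so line and genotype cannot be told apart, and whether a knockout line is a single clone, and for how long cells were exposed, is not given in the sources used here. The study calls the replicates biological without saying which steps were kept separate, and the p-values measure the spread between samples of the same line.

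Secreted and membrane proteins fold inside the ER, where the HSP70 chaperone HSPA5 (BiP), the HSP90 chaperone HSP90B1 and the protein disulfide isomerases act on them. When unfolded proteins accumulate, the membrane sensors ERN1 (IRE1), EIF2AK3 (PERK) and ATF6 are released or activated. ERN1 splices the XBP1 transcript so that it encodes an active transcription factor, ATF6 is cut to release another, and together they raise chaperones, isomerases and the machinery that returns misfolded proteins to the cytosol for degradation, while PERK slows translation and acts through ATF4 and DDIT3. Counts by gene do not separate spliced from unspliced XBP1, and RNA levels do not show whether a sensor protein is active.

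The libraries held 287446 to 2116383 counted reads (median 934235), so that 3 reads, the level taken as the floor, equalled 1.42 to 10.4 CPM (counts scaled to a common library total). Levels below are CPM after trimmed-mean (TMM) scaling, and differences are log2 fold changes ± SE from limma-voom, with p-values adjusted by the Benjamini-Hochberg method over all genes tested and called under 0.05. In cells with DMSO the changed genes followed their labels: FAT1 was lower by 1.80 and CDKN2A by 1.06 on the log2 scale in their knockout lines, and NFE2L2, FGFR1, NRG1 and PIK3CA were higher by 2.91, 4.61, 8.47 and 2.65 in theirs. The 6 basal airway epithelial markers summed to between 3989 and 11775 CPM in every library, led by KRT5, while KRT14 went down to 10 reads in its lowest library. Of 6 markers of other cell types, PTPRC, PECAM1, FOXJ1 and SFTPC, which mark leukocytes, endothelium, ciliated cells and alveolar cells, were at or near 0, and the macrophage marker CD68 and the fibroblast marker COL1A1 had mean counts of 14.7 and 24.2. A property of the libraries largely separated DMSO from the chemicals: the slope of log2 CPM on transcript GC content, per 10 percentage points of GC and relative to the mean of all libraries, was −0.359 to −0.0763 in the 24 DMSO libraries, and −0.0895 to 0.219 in the libraries with a chemical. For this reason the members' differences from DMSO over all lines were also fitted after a trend on GC content and transcript length was removed from each library.

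The members spanned a wide range of abundance. Per transcript length, in TPM (transcript units scaled to a common total) averaged over the 95 samples, the chaperone HSP90B1 was the most abundant at 1264, followed by the lectin chaperones CALR at 993 and CANX at 962, the isomerase P4HB at 730 and HSPA5 at 688. The sensors lay at the other end, with 8.52 TPM for ERN1, 22.9 for EIF2AK3 and 48.5 for ATF6. By role, the median TPM was 343 for the 7 isomerases and lectin chaperones, 176 for the 8 translocation and export genes, 166 for the 9 chaperones and cofactors, 60.6 for the 7 degradation genes and 28.8 for the 5 sensors and transcription factors. By median, the isomerases and lectin chaperones were thus the most abundant role over the 95 samples. Differences between lines for ERN1 rest on few reads, 15 to 41 per library in the 6 DMSO libraries of the GFP and CDKN2A lines.

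The promoters of several members share short elements known from this response, and they are shown because the members that carry them are described as a group below. The ER stress response element (ERSE, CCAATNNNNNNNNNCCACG), ERSE-II (ATTGGNCCACG) and the core of the unfolded protein response element (TGACGTGG) were searched on both strands in the 250 bases before each RefSeq transcription start (GRCh38.p14). RefSeq promoters were at hand for 33 of the 37 members. ERSE was found in 7 members (XBP1, HSPA5, HSP90B1, CRELD2, PDIA6, CALR and CANX), or 21.2%, beside 0.0916% of the 27305 genes searched, and ERSE-II in 3 (HYOU1, SDF2L1 and HERPUD1), or 9.09%, beside 0.0659%. The core TGACGTGG was found in HYOU1, overlapping its upstream ERSE-II, and in SSR3, beside 0.78% of genes. Below, capitals mark the matched letters on the strand of the gene, read toward the start. The windows are chr9:125241344-125241593 (minus strand) for HSPA5, chr22:28800583-28800641 (minus strand) for XBP1, chr11:119057254-119057413 (minus strand) for HYOU1, chr22:49918534-49918592 (plus strand) for CRELD2 and chr16:56932005-56932055 (plus strand) for HERPUD1.
HSPA5: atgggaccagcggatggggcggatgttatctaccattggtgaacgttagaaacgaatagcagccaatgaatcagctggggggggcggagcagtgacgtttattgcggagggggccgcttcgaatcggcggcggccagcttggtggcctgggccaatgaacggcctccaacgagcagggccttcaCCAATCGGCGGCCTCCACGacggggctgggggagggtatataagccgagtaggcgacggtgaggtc
XBP1: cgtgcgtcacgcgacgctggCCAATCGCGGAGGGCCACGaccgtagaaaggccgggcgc
HYOU1: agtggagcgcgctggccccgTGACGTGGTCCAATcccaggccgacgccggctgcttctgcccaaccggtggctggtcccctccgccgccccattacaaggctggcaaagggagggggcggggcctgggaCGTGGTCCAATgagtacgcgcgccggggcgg
CRELD2: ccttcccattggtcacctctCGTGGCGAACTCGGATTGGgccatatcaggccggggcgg
HERPUD1: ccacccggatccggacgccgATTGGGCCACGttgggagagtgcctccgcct

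HSPA5 and XBP1 carry ERSE in the forward direction and CRELD2 in the reverse direction, while HYOU1 holds a pair of reverse ERSE-II matches and HERPUD1 a forward one. The matches are letters in a window, and binding was not measured.

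The largest difference among the members lay between the CDKN2A knockout line and its GFP control with DMSO. CDKN2A encodes p16INK4A and p14ARF, which act in the RB and p53 pathways. HSPA5 (chr9:127997132-128003661, GRCh37, minus strand), the master chaperone of the ER, had 1463, 1575 and 1489 CPM in the 3 CDKN2A libraries and 802, 814 and 713 in the 3 GFP libraries. The groups were far apart, and the level was 1.93-fold higher in the knockout line (0.95 ± 0.04, adjusted p = 6.1e-30, limma-voom). 20 of the 37 members rose and 2 fell, beside 18.9% of the 14540 genes tested that rose and 18.3% that fell. The median log2 difference was 0.376 over the members and 0.018 over all genes tested, with 29 members above 0. The members together took 1.15 to 1.16% of the counted reads in the 3 CDKN2A libraries with DMSO and 0.865 to 0.988% in the other 21 DMSO libraries.

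**Figure D1:**
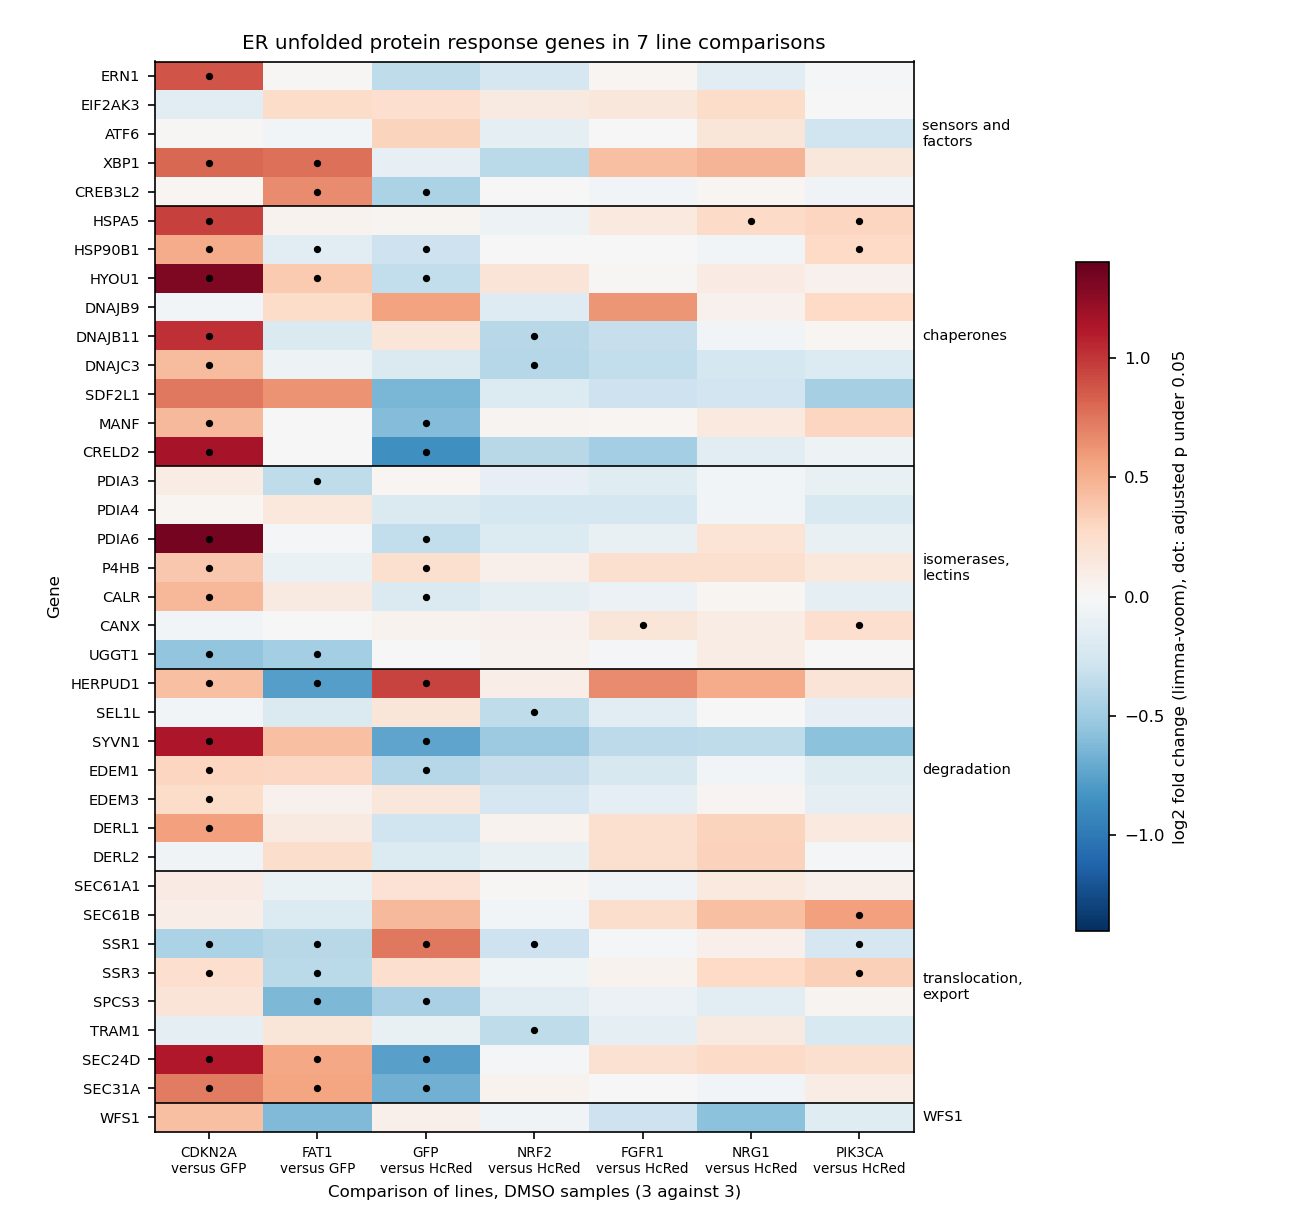
Log2 fold change (colour) of the 37 members in the 7 comparisons of lines cultured with DMSO, grouped by role, with a dot where the limma-voom adjusted p was under 0.05. The CDKN2A column holds 20 higher and 2 lower members with a dot, against 1 in each of the FGFR1 and NRG1 columns.

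The chaperones and their cofactors changed most evenly, with 7 of 9 higher in the CDKN2A line and none lower. HYOU1 (chr11:118914899-118927938, GRCh37, minus strand), a large HSP70-like protein that exchanges nucleotide on HSPA5, had 379, 401 and 409 CPM against 155, 172 and 150 in GFP, a 2.48-fold difference (1.31 ± 0.09, adjusted p = 5e-22, limma-voom). DNAJB11 (chr3:186285192-186303589, GRCh37, plus strand), the J-domain partner of HSPA5, had 338, 369 and 368 CPM against 168, 192 and 166, a 2.03-fold difference (1.02 ± 0.08, adjusted p = 7.2e-17). For both genes the lowest knockout library lay well above the highest control library. CRELD2, a secreted ER stress protein, had 54.5, 32.9 and 61 CPM against 18.5, 28.7 and 19.2 and differed by 1.15 ± 0.23 with a wider spread. HSP90B1 (0.52), MANF (0.46), a secreted ER protein, and the PERK inhibitor DNAJC3 (0.44) rose less. DNAJB9 and SDF2L1 did not pass the test.

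Among the 7 isomerases and lectin chaperones, 3 rose and 1 fell. PDIA6 (chr2:10923517-10978103, GRCh37, minus strand), an isomerase that also binds the sensors, had the largest fold of all members, with 511, 512 and 474 CPM against 196, 192 and 196, or 2.53-fold (1.34 ± 0.08, adjusted p = 8.5e-25, limma-voom). CALR, which retains glycoproteins for folding, was higher by 0.47 and P4HB, the beta subunit of prolyl 4-hydroxylase, by 0.38. UGGT1, which marks misfolded glycoproteins for another round of CALR and CANX binding, had 217, 205 and 222 CPM against 311, 322 and 307 and fell by 0.55. CANX, the membrane-bound counterpart of CALR, lay at −0.04 ± 0.04 and did not pass the test.

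5 of the 7 measured genes of ER-associated degradation rose and none fell. SYVN1 (HRD1), the ubiquitin ligase of this pathway, had 55.3, 48.3 and 69.8 CPM against 14.6, 35.4 and 31.5 (1.13 ± 0.21, adjusted p = 1.2e-05, limma-voom). DERL1 was higher by 0.57, HERPUD1 by 0.42, EDEM1 by 0.30 and EDEM3 by 0.26. SEL1L, the partner of SYVN1, did not pass the test. Of the 8 translocation and export genes, 3 rose and 1 fell: the COPII coat genes SEC24D, with 61.4, 66.8 and 64.5 CPM against 26.2, 39.3 and 24.6 (2.17-fold), and SEC31A (0.73) rose, as did the translocon-associated SSR3 (0.23), while its complex partner SSR1 fell by 0.44.

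The sensors divided. XBP1 (chr22:29190543-29196585, GRCh37, minus strand) had 113, 110 and 85.7 CPM in the CDKN2A line against 56.4, 59.4 and 57.6 in GFP (0.80 ± 0.14, adjusted p = 3.3e-06, limma-voom). ERN1 (chr17:62116440-62208179, GRCh37, minus strand), the enzyme that splices XBP1, had 26.8, 33.9 and 36.2 CPM against 21.4, 14.4 and 16.1 (0.88 ± 0.25, adjusted p = 0.0028), from 31 to 41 and 15 to 22 reads a library. The groups did not overlap for either gene. EIF2AK3 (chr2:88856259-88991036, GRCh37, minus strand) lay at −0.15 ± 0.20 (adjusted p = 0.6) and ATF6 (chr1:161736088-161947364, GRCh37, plus strand) at 0.02 ± 0.10 (adjusted p = 0.9), with overlapping groups. Of 6 genes downstream of PERK, TRIB3, a pseudokinase induced by ATF4 and DDIT3, rose by 0.86. PPP1R15A, which restores translation, rose by 0.73, and the other 4 did not pass the test against GFP. By mean with DMSO, CDKN2A was the highest of the 8 lines for ATF4, ATF3, TRIB3, PPP1R15A and CHAC1, and GFP for DDIT3. The GFP control was itself higher than HcRed for CHAC1 (2.19), DDIT3 (1.94), ATF3, ATF4 and TRIB3. Differences of the CDKN2A line from HcRed are not given here for these genes. Of 35 other measured ER folding, degradation and secretion genes, 10 rose and 6 fell in the CDKN2A line against GFP. Among them were the disulfide oxidase ERO1B (1.32) and the cargo receptor LMAN1 (−0.59).

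**Figure D2:**
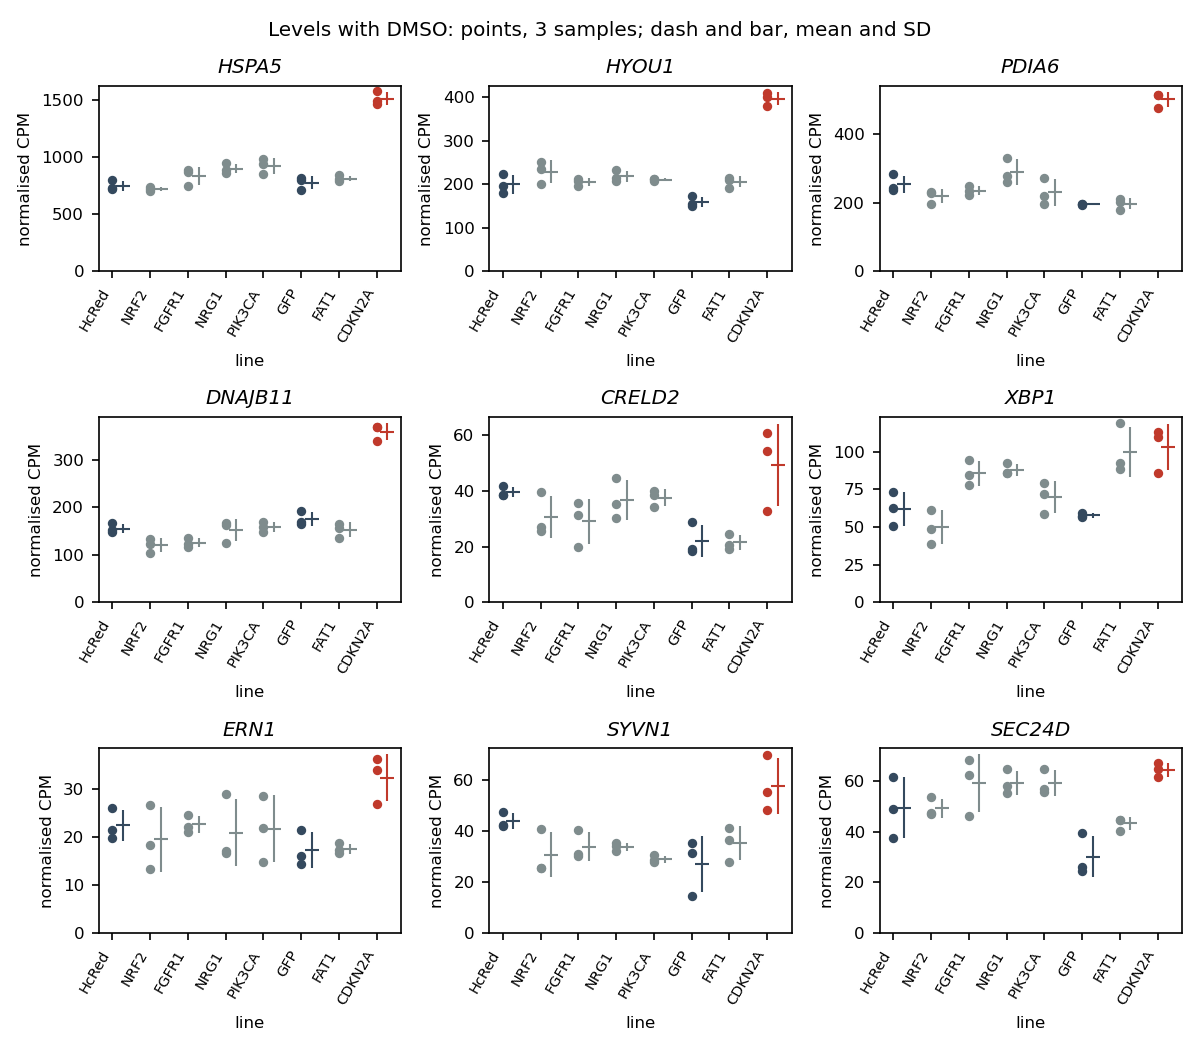
CPM (linear axis) of 9 members in each of the 8 lines with DMSO, with 1 point per sample and, beside the points, a dash at the mean of 3 and a bar of 1 SD. The 3 CDKN2A libraries stand above the other 21 for HSPA5, HYOU1, PDIA6 and DNAJB11, whereas XBP1 is as high in the FAT1 line as in the CDKN2A line.

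Over the 33 members with a promoter at hand, the 10 with an ERSE or ERSE-II match held 8 that rose and none that fell, with a median log2 difference of 0.77 in the CDKN2A line. The 23 without a match held 10 that rose and 2 that fell, with a median of 0.18. In GFP against HcRed, the 10 held 1 that rose and 5 that fell, with a median of −0.24, and the 23 held 2 that rose and 6 that fell, with a median of 0.073. In FAT1 against GFP, the 10 held 2 that rose and 2 that fell, with a median of 0.028. The 23 held 2 that rose and 4 that fell there, with a median of −0.043. These comparisons share the GFP samples, and the same split in the others is not given here. The 10 include HSP90B1, CALR, CANX and HSPA5, which are among the most abundant members, and the part of abundance was not tested. These counts are a description of a list whose results were known when it was divided, and no test was made.

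The same pair of lines was also cultured with each chemical. HSPA5 ran from 1274 to 1304 CPM in CDKN2A cells with CSC against 712 to 734 in GFP cells, from 1354 to 1434 against 641 to 702 with BaP, and from 1410 to 1541 against 666 to 744 with NNK. The samples of the lines did not overlap under any treatment. In separate fits, 22 members passed with CSC (19 higher, 3 lower, beside 17% and 15.3% of genes), 24 with BaP (22 higher, 2 lower, beside 16.6% and 15.5%) and 23 with NNK (20 higher, 3 lower, beside 14% and 14.2%). With all 24 samples of both lines in 1 fit, 24 rose and 2 fell, beside 29.4% and 28.3% of genes. The 3 samples of the CDKN2A line lay above the 3 of GFP in each of the 4 treatments for 14 of 37 members, beside 8.66% of genes, and below for 2, beside 7.72%. The mean of the CDKN2A line was the highest of the 8 lines with DMSO for 21 of the 37 members, beside 22.7% of genes. That of the GFP line was the lowest for 12, beside 17.5% of genes.

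**Figure D3:**
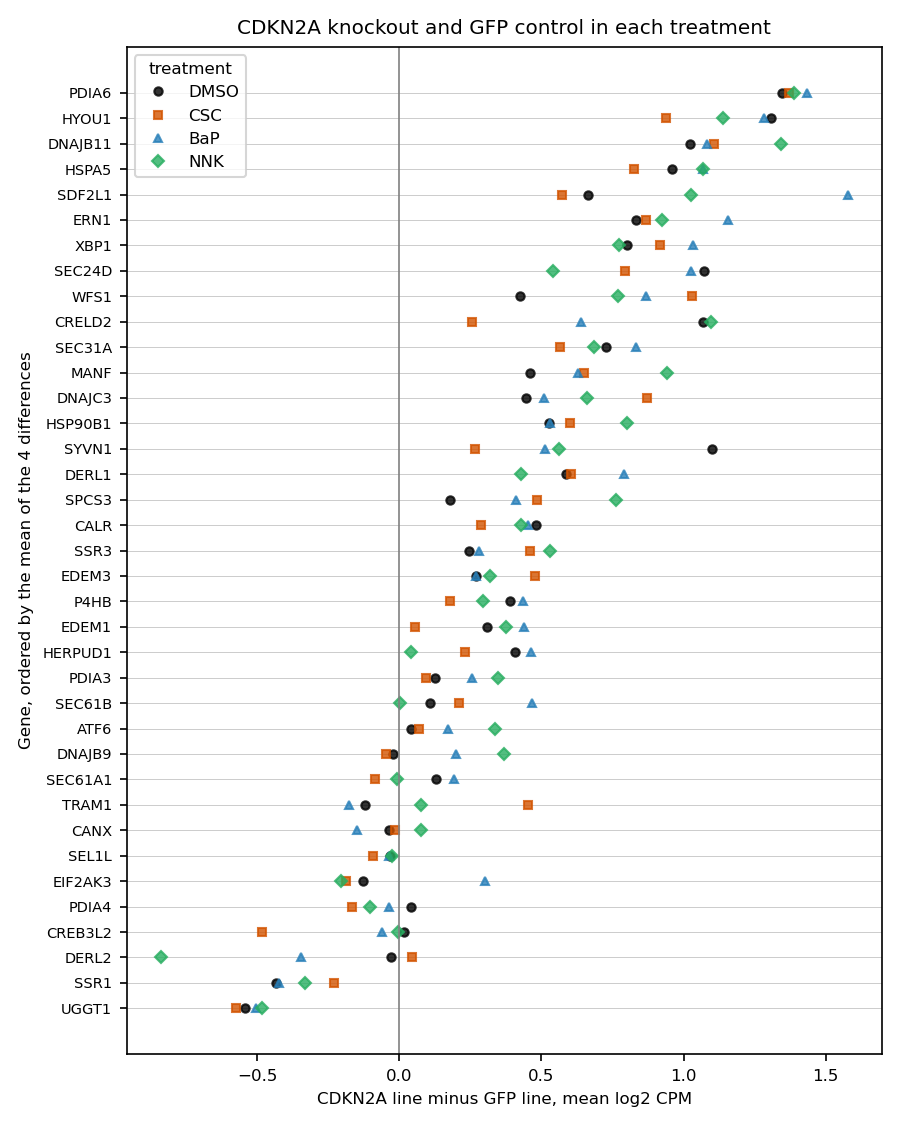
Difference in mean log2 CPM between the CDKN2A and GFP lines for each member under DMSO, CSC, BaP and NNK. For 26 of the 37 members all 4 points lie above 0, and for 3 all lie below.

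Since the GFP libraries stood apart in some members, the CDKN2A line was also set against HcRed and against FAT1, which are alternatives chosen after the data were seen. Against HcRed, 16 members were higher and 4 lower, beside 14.4% and 15.3% of genes. HSPA5 (0.99), DNAJB11 (1.18), PDIA6 (0.99), HYOU1 (0.96) and XBP1 (0.68) kept their call, while CRELD2, SYVN1, SEC24D, SEC31A and ERN1 lost it. SSR1 turned to 0.29 higher, and MANF (−0.15) and EDEM1 (−0.11) changed sign and lost their call. Against FAT1, 19 were higher and 2 lower, beside 19.8% and 18.4%. Of the members called against GFP, 16 kept direction and call with FAT1 in its place. Another 5 kept direction and lost the call, among them XBP1 (0.02), and 1, EDEM1, changed sign. The GC slope also differed here, at −0.359 to −0.285 in the GFP libraries with DMSO and −0.194 to −0.145 in the CDKN2A libraries. Spearman's rho between the members' log2 difference and GC content was 0.55 as counted and 0.21 with the GC and length trend removed. With that trend removed, 23 members rose and 2 fell, beside 19.5% and 17.7%. Markers of other cell types summed to 36.6 to 45.5 CPM in the CDKN2A libraries and 16.9 to 24.3 in GFP, where COL1A1 and CD68 were the 2 of 6 with enough reads to test and COL1A1 alone passed (1.19), and their part in these differences was not tested. In bulk samples, fewer cells of a kind and less RNA per cell cannot be told apart.

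The FAT1 knockout line, which lacks a large protocadherin of the cell surface, showed no such rise. HSPA5 had 805, 789 and 838 CPM against 802, 814 and 713 in GFP and did not pass the test (0.05 ± 0.06, adjusted p = 0.58, limma-voom). 5 members rose and 7 fell, beside 12% and 14.3% of the 14266 genes tested, so both shares were near those over all genes. XBP1 was the member that stood out among those that rose, with 119, 88.3 and 92.5 CPM against 56.4, 59.4 and 57.6 (0.77 ± 0.15, adjusted p = 7.8e-05). The groups did not overlap. CREB3L2, an ER-anchored transcription factor of secretion, rose by 0.66, SEC31A by 0.56, SEC24D by 0.54 and HYOU1 by 0.36. ERN1, EIF2AK3 and ATF6 lay at 0.02 ± 0.27, 0.26 ± 0.19 and −0.04 ± 0.11 and did not pass the test.

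Of the 7 members that fell in the FAT1 line, 3 were among the 8 translocation and export genes, where SEC24D and SEC31A rose, and 2 among the 7 isomerases and lectin chaperones. SPCS3, a subunit of the signal peptidase, had 138, 165 and 162 CPM against 263, 217 and 226 (−0.62 ± 0.10, adjusted p = 6.4e-06, limma-voom). SSR1 fell by 0.39, SSR3 by 0.38, UGGT1 by 0.48, PDIA3, an isomerase that works with CANX and CALR, by 0.35, HSP90B1 by 0.15 and HERPUD1 by 0.77. Against HcRed as the control line, 3 members were higher and 7 lower, beside 8.94% and 10.6% of genes. XBP1 (0.67) and SPCS3 (−1.06) kept their call and direction there, whereas SSR1 turned to 0.37 higher and SEC31A (−0.10), HERPUD1 (0.20) and SEC24D (−0.21) changed sign. Over the settings tried, this control among them, HYOU1 went down to 0.036 and CREB3L2 to 0.24. The falls of SSR3 and HSP90B1 shrank to −0.12 and −0.03 at their smallest. None of these members kept its call in all of these settings.

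These changes of sign follow largely by arithmetic from the difference between the control lines, as both comparisons use the same FAT1 libraries. In GFP against HcRed with DMSO, 3 members were higher and 12 lower, beside 8.76% and 8.95% of the 14218 genes tested. SSR1 had 745, 724 and 679 CPM in GFP against 444, 378 and 452 in HcRed (0.74 ± 0.07, adjusted p = 8.6e-15, limma-voom), and HERPUD1, a stress-induced organiser of ER-associated degradation, had 62.2, 60.3 and 56 against 37.8, 28.9 and 24.7 (0.95 ± 0.20). SEC31A fell by 0.67, SEC24D by 0.76, CRELD2 by 0.85, SYVN1 by 0.74 and MANF by 0.60, whereas HSPA5 (0.04 ± 0.06) and XBP1 (−0.11 ± 0.16) did not pass the test. Of the 6 genes downstream of PERK, 5 were higher in GFP, led by the glutathione-degrading CHAC1 (2.19) and by DDIT3 (1.94). The GFP and HcRed lines differ in vector. Their culture history is not given in the sources used here, so its part cannot be told apart from that of the vector. The comparisons of FAT1 and CDKN2A share the GFP samples, and those of the overexpression lines share the HcRed samples.

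The overexpression lines differed from HcRed in few members. In the PIK3CA line, which overexpresses the catalytic subunit of phosphoinositide 3-kinase, 5 members rose and 1 fell, beside 4.79% and 3.81% of 14278 genes. HSPA5 had 940, 982 and 847 CPM against 796, 719 and 730 in HcRed (0.30 ± 0.06, adjusted p = 8e-05, limma-voom). The groups did not overlap. HSP90B1 rose by 0.28, CANX by 0.23, SSR3 by 0.34 and SEC61B, a subunit of the translocon, by 0.57, SSR1 fell by 0.23, and DDIT3, which is induced through PERK, rose by 1.61. XBP1 and the 3 sensors did not pass the test.

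In the NRG1 line, which overexpresses the ERBB ligand neuregulin 1, HSPA5 was the only member called, with 944, 862 and 890 CPM against 796, 719 and 730 (0.27 ± 0.06, adjusted p = 0.0016, limma-voom), beside 1.1% of 14053 genes that were higher. XBP1 had 85.6, 85.7 and 92.5 CPM against 62.7, 50.5 and 73.2 and did not pass the test (0.48 ± 0.16, adjusted p = 0.082), although the groups did not overlap. In the FGFR1 line CANX was the only member called (0.16 ± 0.04, adjusted p = 0.022), beside 1.09% of 14214 genes that were higher, and HSPA5 lay at 0.13 ± 0.06. With the DESeq2 test no member was called in the NRG1 line (4 at an unadjusted p under 0.05) or in the FGFR1 line (7). The shares of all genes at that unadjusted level are not given here.

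In the NRF2 line, which overexpresses the transcription factor of the oxidative stress response, 5 members fell and none rose, beside 3.9% and 3.26% of 14035 genes. DNAJB11 had 122, 104 and 134 CPM against 166, 149 and 151 (−0.39 ± 0.12, adjusted p = 0.031, limma-voom), and DNAJC3, SEL1L, TRAM1, an accessory protein of the translocon, and SSR1 fell by 0.40, 0.36, 0.35 and 0.29. HSPA5 had 718, 700 and 740 CPM (−0.07 ± 0.06) and XBP1 39, 61.4 and 48.8 (−0.38 ± 0.18), and neither passed the test. The NRF2 line had the lowest mean of the 8 lines for 11 of the 37 members, beside 12.8% of genes. DESeq2 called none of the members (6 at an unadjusted p under 0.05, with the share of all genes at that level not given here). Of the 5 that fell, DNAJB11 alone passed with the GC and length trend removed.

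Ordered by mean level with DMSO, HSPA5 ran from CDKN2A through PIK3CA, NRG1, FGFR1, FAT1, GFP and HcRed to NRF2, and among these the samples of CDKN2A stood clear of the next line while those of the other neighbours overlapped. ERN1 ran from CDKN2A at the top, whose samples also stood clear of the next line, to GFP at the bottom. EIF2AK3 ran from FAT1 to PIK3CA, ATF6 from CDKN2A to PIK3CA and XBP1 from CDKN2A and FAT1 to NRF2, and for these genes the samples of neighbouring lines overlapped.

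The next comparisons asked how the chemicals moved these genes over all 8 lines. With CSC against DMSO (47 samples), 9 members rose and 17 fell, beside 27.2% and 28.4% of the 14497 genes tested. HSPA5 ran from 497 to 1304 CPM with a median of 734 with CSC, and from 700 to 1575 with a median of 826 with DMSO, and it fell by 0.20 ± 0.02 (adjusted p = 3.5e-12, limma-voom). SDF2L1, a stress-induced partner of the J-domain proteins, rose by 0.88 as counted and 0.39 with the trend removed, while HSP90B1 fell by 0.31 and then 0.059, and PDIA3 by 0.33 and then 0.12. P4HB rose by 0.26 as counted, and lost its call with the trend removed (0.039, adjusted p = 0.22). With BaP (48 samples), 9 rose and 18 fell, beside 26.4% and 25.1%, and with NNK (48 samples), 9 rose and 15 fell, beside 25.9% and 25.8%. The shares that rose were near those over all genes, and those that fell were above them. Other markers moved too: COL1A1 was 1.87-, 1.77- and 1.66-fold higher with CSC, BaP and NNK, CD68 was 2.01- and 1.26-fold higher with CSC and BaP, and of the 6 basal markers 2 rose and 3 fell with CSC, 2 rose and 4 fell with BaP, and 4 rose and none fell with NNK. The 6 markers of other cell types summed to 16.9 to 45.5 CPM with DMSO, 37.5 to 72.4 with CSC, 19.1 to 76 with BaP and 17.8 to 60.4 with NNK. The marker values are as counted, and none is given here with the trend removed. Transcript GC content was 61.5% for COL1A1 and 55.8% for CD68, and ran from 42.4% (TP63) to 63.6% (ITGB4) in the basal markers. The part of these markers in the members' differences was not tested. The 3 comparisons share their DMSO samples.

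The direction followed the GC content of the transcript. Over the 37 members, Spearman's rho between the log2 difference from DMSO and transcript GC content was 0.63 for CSC, 0.75 for BaP and 0.86 for NNK, across genes that share libraries and are not independent replicates. After the trend on GC content and length was removed it was −0.16, 0.004 and 0.014, and the calls became 15 higher and 7 lower with CSC (beside 21.9% and 12.5% of genes), 5 and 8 with BaP (beside 16.9% and 8.74%) and 5 and 1 with NNK (beside 11.9% and 5.45%). The sign changed for 8, 6 and 11 of the members called before. Whether the slope of the DMSO libraries arose from the cells or from the preparation was not tested.

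**Figure D4:**
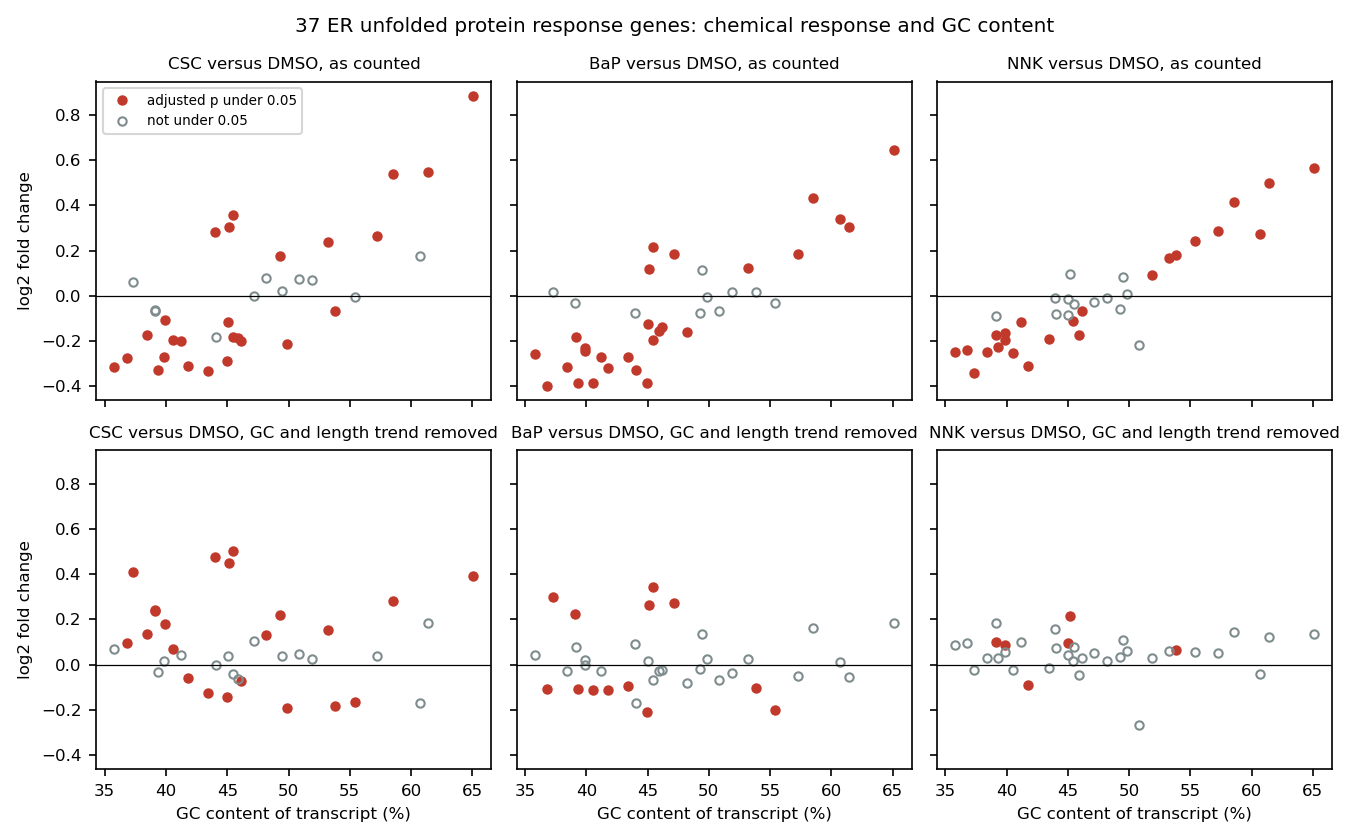
Log2 fold change from DMSO of each member (vertical axis) against the GC content of its transcript in percent, for CSC, BaP and NNK, as counted and after the trend on GC content and length was removed. The points rise from left to right as counted, and are level after removal.

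13 members were called with the same sign both ways for CSC. The share of all genes called both ways was not computed for any chemical, so members called both ways are listed as a description only. With the trend removed, 34.4% of genes were called for CSC, 25.7% for BaP and 17.4% for NNK. The members higher both ways with CSC were EDEM1, SEC24D, DERL1, SYVN1, SDF2L1, SEC61A1 and SEC61B. The roles they come from were split as counted. The 7 degradation genes held 3 higher and 2 lower, and the 8 translocation and export genes 3 higher and 4 lower. EDEM1, a lectin that delivers misfolded glycoproteins to degradation, ran from 108 to 163 CPM (median 126) with CSC and from 79.5 to 134 (median 103) with DMSO, a difference of 0.30 ± 0.04 as counted (adjusted p = 3.6e-09, limma-voom) and 0.45 with the trend removed. Those lower were HSP90B1, PDIA3, UGGT1, HSPA5, MANF and CALR, and HSPA5 lay at −0.07 with the trend removed (adjusted p = 0.0091). With BaP, SEC24D, HERPUD1 and EDEM1 rose and SSR1, HSP90B1, UGGT1, TRAM1, SEL1L and PDIA3 fell both ways. With NNK, CALR rose and HSP90B1 fell both ways, and HSPA5 changed from −0.07 to 0.03.

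XBP1 and the sensors ERN1 and EIF2AK3 did not pass the test with any chemical against DMSO, except EIF2AK3 with BaP. There EIF2AK3 fell by 0.33 as counted (adjusted p = 0.004, limma-voom) and did not pass with the trend removed (−0.17, adjusted p = 0.2). XBP1 ran from 39 to 119 CPM with DMSO (median 78.7), 40.4 to 134 with CSC (median 76.5), 37.5 to 132 with BaP (median 77.9) and 36.8 to 127 with NNK (median 79.9). Its medians were nearly level and its range was that of the lines. ATF6 fell with all 3 chemicals as counted and with none after the trend was removed. Of the genes downstream of PERK, TRIB3 rose by 0.85 with CSC, 0.77 with BaP and 0.61 with NNK, and by 0.47, 0.38 and 0.25 with the trend removed. PPP1R15A rose by 0.52, 0.97 and 0.63, and by 0.23, 0.68 and 0.34, and all of these values passed the test. ATF3 rose with BaP alone (0.50 as counted, 0.49 with the trend removed). CHAC1 rose with all 3 as counted (0.47, 0.40 and 0.26) and lost each call with the trend removed (0.093, 0.021 and −0.095). ATF4 rose with BaP as counted (0.13) and lost that call, and it fell with NNK after removal only (−0.12, adjusted p = 0.032, limma-voom), and DDIT3 passed in none.

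The chemicals were also compared with each other, where the GC slopes were alike and rho with GC content was 0.004 for CSC against BaP, −0.06 for CSC against NNK and 0.05 for BaP against NNK. The agents differ in kind and in dose, so each value compares these cultures. In CSC against BaP, 13 members were higher and 2 lower, beside 8.57% and 6.52% of 14345 genes. DERL1, a channel protein of ER-associated degradation, ran from 70.8 to 132 CPM (median 92.2) with CSC and from 35.4 to 92 (median 78.3) with BaP, a difference of 0.36 ± 0.06 (adjusted p = 3.6e-06, limma-voom). SEC61B (0.28), WFS1 (0.27), an ER membrane protein of calcium handling, CREB3L2 (0.24), SSR1 (0.21), EDEM1 (0.20), EDEM3 (0.16), CANX (0.15) and SEC61A1 (0.13), the pore of the translocon, were higher too, and MANF was lower by 0.20. HSPA5 lay at −0.05 ± 0.03 and XBP1 at −0.07 ± 0.07, and neither passed the test.

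In CSC against NNK, 10 members were higher and 6 lower, beside 11% and 10.6% of 14339 genes. SEC24D ran from 42.5 to 84.9 CPM (median 65.4) with CSC and from 34.7 to 73.8 (median 49.8) with NNK, a difference of 0.38 ± 0.06 (adjusted p = 1e-06, limma-voom). DNAJB9, a J-domain protein that represses ERN1, was higher by 0.42, ERN1 by 0.31 (adjusted p = 0.03), DERL1 by 0.29 and EDEM1 by 0.21, while UGGT1 was lower by 0.26, HYOU1 by 0.25, CALR by 0.24, MANF by 0.20 and HSPA5 by 0.11. The 6 lower members were all chaperones, cofactors or enzymes of folding, and the 10 higher members came from each of the 5 roles.

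In BaP against NNK, 2 members were higher and 9 lower, beside 3.87% and 5.32% of 14231 genes. Of the 6 basal markers, 5 were lower in this comparison and 5 in CSC against NNK, and 2 were higher and 1 lower in CSC against BaP, and their part was not tested. UGGT1 ran from 137 to 282 CPM (median 240) with BaP and from 208 to 365 (median 305) with NNK, a difference of −0.38 ± 0.04 (adjusted p = 3.5e-13, limma-voom). HYOU1 was lower by 0.29, SEL1L and CALR by 0.17 each and SSR1 by 0.14, and SEC24D (0.24) and DNAJB9 (0.37) were higher. HSPA5 (−0.07 ± 0.03) did not pass the test. Leaving out replicate number 1, 2 or 3 of every group left 7 to 9 members called in CSC against BaP, 9 to 12 in CSC against NNK and 4 to 8 in BaP against NNK. The shares of all genes called in these smaller fits are not given here.

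**Figure D5:**
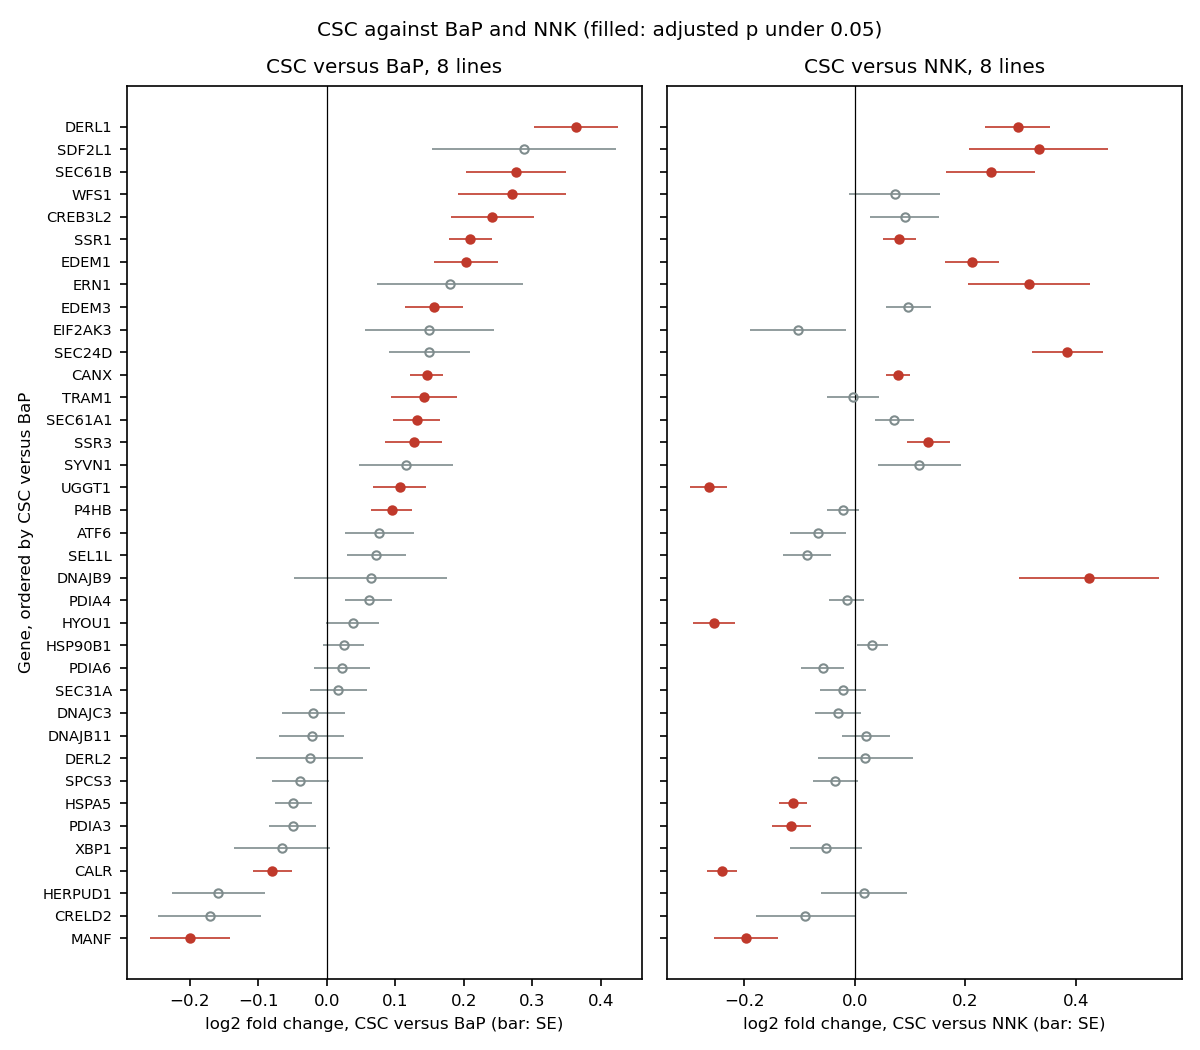
Log2 fold change of each member in CSC against BaP and in CSC against NNK, with bars of 1 SE and filled points where the limma-voom adjusted p was under 0.05. DERL1 and EDEM1 lie above 0 and pass in both, and MANF and CALR lie below 0 and pass in both.

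Whether the lines responded differently was tested with the interaction of line and chemical. No member was called for CSC by limma-voom, beside 0.952% of genes called, and TRAM1 was called by edgeR and by DESeq2. None was called for BaP, beside 0.368% of genes called, nor by edgeR or DESeq2. At an unadjusted p under 0.05 there were 7 members for CSC and 6 for BaP by limma-voom. The shares of all genes at that unadjusted level are not given here, so these counts show no excess among the members. For NNK, HSP90B1 was called by limma-voom (adjusted p = 0.000538), beside 0.452%, with a fall in each of the 8 lines from −0.07 in NRG1 to −0.52 in GFP. It was not called by edgeR (adjusted p = 0.209) or DESeq2 (adjusted p = 0.257), nor without replicate 2 (adjusted p = 0.516).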

How the data were processed

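The data were RNA counts by gene from 95 cultures of AALE cells. The counts were deposited as whole reads per gene symbol and sample by the authors, who per the labels and methods trimmed reads with cutadapt 1.12, checked them with FastQC 0.11.5, aligned them to hg19 with STAR 2.5.2b and counted them with featureCounts (Subread). Libraries were single-end after ribosomal depletion; strand and molecular identifiers are not given in the sources used here, so reads of overlapping antisense genes cannot be told apart. No column was left out (0), and no libraries held identical counts (0).

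Counts were scaled by TMM in edgeR 4.0.16 and tested with limma-voom (limma 3.58.1, R 4.3.3) over genes with a mean count above 1, with adjusted p-values by Benjamini-Hochberg and a threshold of 0.05. Chemicals were compared over all 8 lines with line as covariate, lines among the DMSO samples, and line by chemical interactions by a joint F test. TPM and GC content used the canonical GENCODE transcript on GRCh37 (24309 symbols matched, 86.9%). The trend on GC content and length was a loess fit (span 0.3) in each library. Other settings tried were DESeq2 1.42.0, the quasi-likelihood test of edgeR, median-ratio scaling, different count minimums, a replicate block, 1 fit over all samples and leaving out replicates or lines. The tests were checked on simulated counts. All listed members may be named; full values are given for HSPA5, XBP1 and the sensors and, in each comparison, for up to 10 members with the smallest adjusted p. The members, gene lists and tests were chosen with earlier results of these data known.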

Additional observations from a re-analysis of the deposited data

Results flagged for a closer look

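The response of HSP90B1 to NNK differed between lines by the interaction test (limma-voom, adjusted p = 0.000538). The log2 difference from DMSO was below 0 in each of the 8 lines, from −0.07 in NRG1 and −0.24 in CDKN2A to −0.45 in PIK3CA and −0.52 in GFP, and the call was lost with edgeR (adjusted p = 0.209), with DESeq2 (adjusted p = 0.257) and without replicate 2 (adjusted p = 0.516). These responses are as counted. The response of DDIT3, a transcription factor gene induced through PERK and not among the 37 members, differed between lines with CSC by the same test (limma-voom, adjusted p = 0.0154). It lay at 0.98 in HcRed, 0.94 in NRF2 and 0.21 in FGFR1, and at −0.05 in NRG1, −0.45 in CDKN2A, −0.60 in PIK3CA, −0.73 in FAT1 and −0.88 in GFP. The call was lost with DESeq2 (adjusted p = 0.0613), with all genes with a read (0.154), with all 95 samples in 1 fit (0.109) and without replicate 1 (0.211) or 3 (0.411).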

How the results depend on the processing

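Over all settings, 213 counts of called members stayed within 1.5 times the value given above and 46 moved further. For single called members 2936 values kept direction and call, 377 kept direction and lost the call, and 33 changed sign. Leaving out replicate 1, 2 or 3 gave 24 to 26 members called for CSC, 23 to 26 for BaP and 21 to 22 for NNK against DMSO, 7 to 9 for CSC against BaP, 9 to 12 for CSC against NNK, 4 to 8 for BaP against NNK, 0 to 0 for the CSC and BaP interactions and 0 to 1 for NNK, and 10 to 12 for FAT1, 19 to 22 for CDKN2A, 1 to 4 for NRF2, 0 to 2 for FGFR1, 0 to 2 for NRG1, 4 to 6 for PIK3CA and 10 to 13 for GFP against HcRed. Each of these fits held fewer samples, and the 3 comparisons between chemicals fell below the value given above in each of them. Without the FAT1 or the NRF2 line, BaP against NNK gave 7 members each, and 6 with all genes with a read. The shares of all genes called in the fits of this paragraph are not given here, so the changes in count are not particular to the members.

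With the GC and length trend removed, 13 members were called for BaP (beside 25.7% of genes) and 6 for NNK (17.4%). For NRF2 there were 3 (6.29%), for FGFR1 2 (2.38%) and for NRG1 3 (2.25%). Members that changed sign then were, for CSC, SPCS3 0.069, SSR1 0.0695, TRAM1 0.094, DNAJC3 0.014, CANX 0.18, EDEM3 0.14, ATF6 0.044 and SEC31A 0.038. For BaP they were SPCS3 0.044, P4HB −0.049, DNAJC3 0.023, SSR3 0.079, WFS1 −0.056 and SEC31A 0.015. For NNK they were CANX 0.087, EDEM3 0.027, SPCS3 0.085, SEL1L 0.028, TRAM1 0.093, SSR3 0.098, DNAJC3 0.056, CRELD2 −0.041, PDIA6 0.014, HSPA5 0.028 and ATF6 0.099. With HcRed as the control line, chosen after the data were seen, signs changed in the FAT1 comparison for SSR1 0.37, SEC31A −0.10, HERPUD1 0.20 and SEC24D −0.21, and in the CDKN2A comparison for SSR1 0.29, MANF −0.15 and EDEM1 −0.11, and EDEM1 was −0.0058 with FAT1 in place of GFP. The alternative control is itself a line that differs in vector.

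The CSC interaction gave 1 member with edgeR, DESeq2, median-ratio scaling and a minimum mean count of 10, and the NNK interaction gave 0 with edgeR and DESeq2. DESeq2 gave 0 for NRF2, FGFR1 and NRG1, 3 for PIK3CA and 7 for GFP against HcRed. FGFR1 gave 2 with all genes with a read and with that minimum, and 0 with all 95 samples in 1 fit. The shares of all genes called under these settings are not given here, so the changes in count are not particular to the members. With all 4 treatments in the fit, which adds samples, the counts were 21 for FAT1 (beside 48.9% of genes) and 14 for NRF2 (21.6%). They were 9 for FGFR1 (13.5%), 8 for NRG1 (10.8%), 15 for PIK3CA (27.8%) and 24 for GFP against HcRed (45%). Other causes were not tested.

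The labels number replicates alike in every group, but samples with the same number did not deviate together (mean correlation from −0.0046 to 0.034), so the numbers were not read as pairing. With the replicate block, members called went from 1 to 2 in FGFR1, and to 16 in GFP against HcRed, 14 in CSC against BaP and 15 in CSC against NNK. The shares of all genes called with the block are not given here. Depth limits SDF2L1, DNAJB9, ERN1 and EIF2AK3 most, with mean counts of 13.4, 16.8, 19.8 and 30.3 reads a library.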
